A study of Mus musculus with 16 samples.

Results

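The genes described here are the 10 genes of intestinal chloride, bicarbonate and guanylin fluid secretion: *Guca2a*, *Guca2b*, *Gucy2c*, *Prkg2*, *Cftr*, *Kcnn4*, *Slc26a3*, *Slc26a6*, *Slc9a2* and *Slc9a3*. They were chosen by symbol, with earlier results of these data known, and all 10 were found among the 45513 Ensembl genes counted in the files. RNA-seq was performed on small intestinal epithelium of 8 Atoh1(WT)CreERT2 R26RtdTom mice of 8 to 16 weeks, a line in which wild-type *Atoh1* and a tamoxifen-inducible Cre are expressed from the *Atoh1* locus and Cre switches on the red reporter tdTomato (tdTom) from the Rosa26 locus. All mice were homozygous for the knock-in, with a heterozygous reporter in lineage tracing. They received 1 mg of tamoxifen per day on 3 days. From each mouse, live EpCAM+tdTom+ and EpCAM+tdTom- cells were sorted after the villus-enriched first fraction of the proximal 15 cm had been discarded, giving 8 libraries of each fraction. The tdTom+ cells are those in which *Atoh1* had driven Cre and their progeny, and the tdTom- cells are all other EpCAM+ cells, so that neither fraction is a single cell type.

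Guanylin and uroguanylin are small peptides released into the gut lumen, where they bind guanylate cyclase C on epithelial cells. The cyclic GMP made by this receptor activates cGMP-dependent protein kinase II, which opens the chloride channel CFTR and inhibits the sodium-proton exchanger NHE3, so that salt and water move into the lumen. Bicarbonate leaves the cell through CFTR and through anion exchangers of the SLC26 family, which take up chloride in exchange, and basolateral potassium channels keep the electrical driving force.

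Guanylin and uroguanylin are encoded by neighbouring genes. *Guca2a* (ENSMUSG00000023247) lies at chr4:119637704-119639471 on the plus strand and *Guca2b* (ENSMUSG00000032978) at chr4:119656607-119658954 on the minus strand of GRCm38, with 17.1 kb between them. These neighbours differed in opposite directions between the fractions. The sequences before their start sites are given first, together with that of *Slc26a3*. This exchanger was lower in tdTom+, and its sequence, unlike that of *Slc26a6*, matched some of the motifs searched. RefSeq promoter sequences of GRCm38.p6 were at hand for 7 of the 10 genes. Each is printed 5′ to 3′ on the gene's own strand and is cut short where an exon in the files begins, at chr4:119637482-119637703 (plus strand) for *Guca2a*, chr4:119658955-119659195 (minus strand) for *Guca2b* and chr12:31437969-31438216 (plus strand) for *Slc26a3*. The *Guca2a* and *Guca2b* stretches end at the first base of the gene in the files, whereas that of *Slc26a3* precedes the RefSeq start and lies inside the longer gene that the files annotate. Capitals mark every match, on either strand, to the 6 motifs searched.
Guca2a: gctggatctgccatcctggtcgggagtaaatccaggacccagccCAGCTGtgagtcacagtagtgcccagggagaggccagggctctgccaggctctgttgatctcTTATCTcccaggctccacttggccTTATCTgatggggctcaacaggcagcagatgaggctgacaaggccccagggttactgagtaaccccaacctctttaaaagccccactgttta
Guca2b: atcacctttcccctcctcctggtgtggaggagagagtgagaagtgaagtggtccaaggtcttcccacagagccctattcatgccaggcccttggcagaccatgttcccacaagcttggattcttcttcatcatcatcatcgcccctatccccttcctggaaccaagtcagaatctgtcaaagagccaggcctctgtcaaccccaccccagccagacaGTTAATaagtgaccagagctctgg
Slc26a3: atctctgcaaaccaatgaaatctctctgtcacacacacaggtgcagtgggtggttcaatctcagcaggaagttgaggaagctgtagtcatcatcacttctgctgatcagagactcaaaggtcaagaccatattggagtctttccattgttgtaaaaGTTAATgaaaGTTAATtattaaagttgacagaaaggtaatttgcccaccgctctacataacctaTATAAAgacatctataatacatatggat
The *Guca2a* sequence held 2 GATA motifs, AGATAA read on the other strand as TTATCT, beginning 144 and 120 bases before the RefSeq start, and an E-box CAGCTG 206 bases before it. The *Guca2b* sequence held the HNF1 motif GTTAAT once, 33 bases before the start. *Slc26a3* held GTTAAT at 94 and 84 bases before the start and the TATA box TATAAA at 30 bases. No 2 matches overlapped. Among the 250 bases before the start of all 32851 RefSeq promoters, the GATA motif was present in 9.99%, GTTAAT in 6.43%, CAGCTG in 13.0% and TATAAA in 12.4%. The CDX motif TTTATG (10.8% of promoters) and the HNF4 motif CAAAGTC (3.84%) matched none of the 7, and *Cftr*, *Slc26a6*, *Slc9a3* and *Kcnn4* matched none of the 6 motifs. These are matches of letters and not measured binding sites, and whether they bear on the differences between the fractions was not tested.

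The libraries held 17116405 to 25323567 counted reads. *Atoh1* was at 62.5 ± 12.7 CPM (counts per 1000000 counted reads, with TMM-scaled library totals; SD, n = 8) in tdTom+ and 0.718 ± 0.247 in tdTom-, in the order of the labels in every mouse. All 8 goblet, 8 Paneth and 8 enteroendocrine markers and the 7 tuft markers tested were higher in tdTom+, and all 8 absorptive markers were lower. The summed goblet markers ranged from 128104 to 264225 CPM in tdTom+ and from 952 to 1511 in tdTom-, and the summed absorptive markers from 1563 to 6021 and from 14550 to 38346. Of 8 intraepithelial lymphocyte markers 6 were lower in tdTom+, with sums of 5.96 to 28.9 CPM in tdTom+ and 10.6 to 148 in tdTom-. Of the remaining panels, 4 of 8 crypt base stem markers and 1 of 3 stromal markers tested were higher in tdTom+. In addition, 3 of 7 epithelial markers were higher and 1 lower, and the 8 mitosis markers did not pass (edgeR, lowest adjusted p = 0.141). By the same test, 25.8% of all genes tested were higher and 30.0% lower in tdTom+. The tdTom- library of mouse 7 stood apart, with the lowest absorptive sum (14550 against 24823 to 38346 CPM in the other mice) and the highest crypt base stem sum (2857 against 1164 to 1810). The same library of mouse 7 also held the lowest enteroendocrine (580 against 631 to 1098), tuft (21.8 against 42.1 to 133) and epithelial sums (7189 against 7427 to 9079). Its tdTom+ library also stood apart, with the lowest absorptive sum (1563 against 2821 to 6021 CPM), the lowest goblet and epithelial sums, the highest Paneth sum (139451 against 52683 to 97277) and the highest stromal sum (46.0 against 18.5 to 29.4). Results that change without mouse 7 are given both ways.

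Of the 10 genes, 9 differed between the fractions at an adjusted p under 0.01 (edgeR quasi-likelihood test with mouse as a block, Benjamini-Hochberg over 15323 genes). *Guca2a* was higher in tdTom+ and the other 8 were lower, and *Kcnn4* did not pass. Differences were common across the transcriptome, since 55.8% of all genes tested passed, 25.8% higher and 30.0% lower in tdTom+. The higher genes were thus 46.2% of those that passed, or 57.0% when 10 counts were required in every library. The 8 of 10 lower is to be read against that 30.0%. The median log2 fold change of the 10 genes was -1.71, against 0.02 over all genes tested. In 9 of the 10 genes the CPM of the 2 fractions did not overlap, compared with 31.6% of all genes tested. In sorted bulk RNA, fewer cells that express a gene and less of its RNA per cell cannot be told apart.

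**Figure D1:**
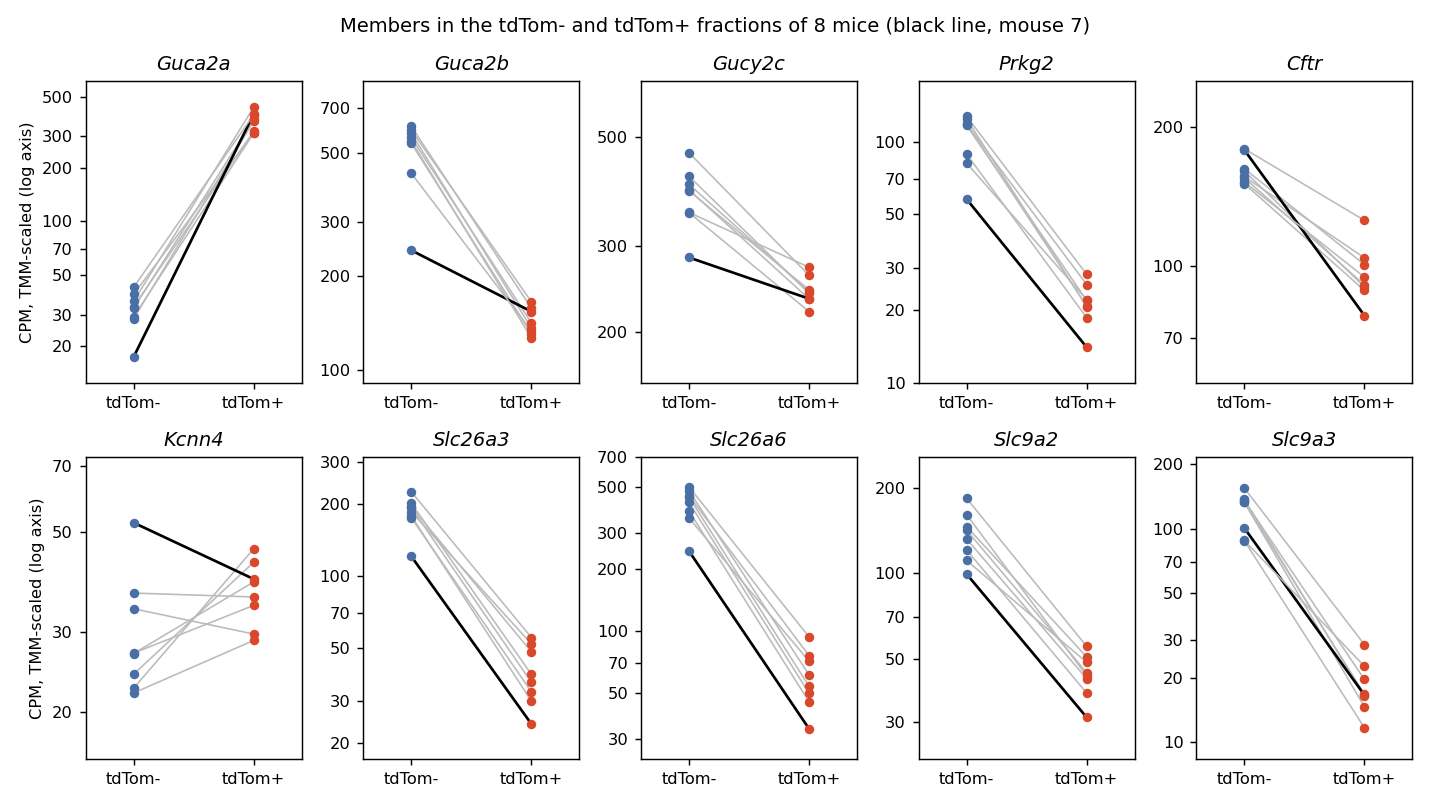
Level of each of the 10 genes in CPM (log axis) in the tdTom- (blue) and tdTom+ (red) library of each of 8 mice, joined by a line per mouse, with mouse 7 in black. *Guca2a* rises to the right in all 8 mice, 8 genes fall in all 8 mice, and the lines of *Kcnn4* cross.

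*Guca2a*, which encodes guanylin, ranged from 312 to 436 CPM in the tdTom+ libraries (median 369) and from 17.4 to 42.8 CPM in the tdTom- libraries (median 33.0). Every tdTom+ library thus lay far above every tdTom- library. The log2 fold change was 3.52 (SE 0.14, adjusted p = 6.4e-11 by edgeR), an 11.5-fold difference. *Guca2b*, which encodes uroguanylin, went the other way, from 127 to 165 CPM in tdTom+ (median 139) and from 242 to 609 CPM in tdTom- (median 554). The lowest tdTom- value was that of mouse 7, and the next lowest was 430 CPM. Its log2 fold change was -1.80 (SE 0.14, adjusted p = 6.04e-08 by edgeR), or 3.49-fold lower in tdTom+, and it was -1.96 without mouse 7.

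The 2 ligand genes therefore exchanged places. Levels of different genes were compared per kilobase of exon, and such comparisons depend on the annotated exon lengths. By this measure *Guca2a* made up 78.7 ± 2.76% (SD, n = 8) of the ligand reads in tdTom+ and 8.64 ± 1.84% in tdTom-. The ranges were 74.5 to 82.4% and 7.10 to 12.7%. The ratio of *Guca2a* to *Guca2b* reads per kilobase had a median of 3.70 in tdTom+ and 0.0907 in tdTom-. Its log2 ratio was higher in tdTom+ by 5.32 (SD over mice 0.32), about 40.0-fold, in 8 of 8 mice. An exact two-sided sign-flip test gave p = 0.00781, the smallest that 8 mice allow, and the adjusted p over the 4 ratios tested was also 0.00781. Since *Guca2a* was higher and *Guca2b* lower in all 8 mice, this p was fixed by those 2 results and adds nothing to them.

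Summed over both genes, the ligand level was 778 ± 77.6 CPM per kilobase in tdTom+ and 643 ± 148 in tdTom- (SD, n = 8). This sum, examined after the separate values were known, was higher in tdTom+ in 6 of 8 mice, by 0.32 on the log2 scale (SD over mice 0.50, exact two-sided sign-flip p = 0.0469). Mouse 7 alone differed by 1.46. Without it the difference was 0.15 with an exact p of 0.0938, and p ranged from 0.0312 to 0.148 over all alternatives, so no difference in the summed ligand level is called.

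The receptor gene *Gucy2c* (ENSMUSG00000042638, chr6:136697285-136781765, minus strand), which encodes guanylate cyclase C, was well expressed on both sides of the sort. It ranged from 220 to 271 CPM in tdTom+ (median 241) and from 284 to 465 CPM in tdTom- (median 390). The ranges came close without touching, and the lowest tdTom- value was again that of mouse 7. *Gucy2c* was 1.56-fold lower in tdTom+ (log2 fold change -0.64, SE 0.07, adjusted p = 2.65e-06 by edgeR), the smallest difference among the 9 genes that passed.

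*Prkg2* (ENSMUSG00000029334, chr5:98929773-99037351, minus strand), which encodes the membrane-bound cGMP-dependent protein kinase II, was also lower in tdTom+ in every mouse. It ranged from 14.1 to 28.2 CPM in tdTom+ (median 21.4) and from 57.8 to 127 CPM in tdTom- (median 118). Both lowest values belonged to mouse 7, and in each mouse the tdTom+ library held 16.7 to 27.2% of the tdTom- level. The log2 fold change was -2.25 (SE 0.08, adjusted p = 1.92e-11 by edgeR).

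The chloride channel gene *Cftr* (ENSMUSG00000041301, chr6:18170687-18322768, plus strand) showed a moderate difference. In tdTom+ it ranged from 78.4 to 126 CPM (median 93.1), and in tdTom- from 151 to 180 CPM (median 159). The tdTom- values were the most even of the 10 genes in that fraction, with an SD of 6.89% of the mean, and mouse 7 was not low among them at 179 CPM. *Cftr* was 1.68-fold lower in tdTom+ (log2 fold change -0.75, SE 0.07, adjusted p = 3.83e-07 by edgeR).

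*Kcnn4* (ENSMUSG00000054342, chr7:24370263-24385209, plus strand) encodes the calcium-activated potassium channel KCa3.1, which recycles potassium during chloride secretion. Its values overlapped, from 28.8 to 46.0 CPM in tdTom+ (median 37.4) and from 22.0 to 52.5 CPM in tdTom- (median 27.0). The tdTom- library of mouse 7 was the highest of all 16, and 5 of 8 mice had the higher value in tdTom+. The log2 fold change was 0.31 (SE 0.14, 95% interval 0.01 to 0.61) with an edgeR adjusted p of 0.0682. Without mouse 7 it was 0.42 with an edgeR adjusted p of 0.00877, and over all alternatives the adjusted p ranged from 0.00877 to 0.19.

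The 2 apical anion exchangers fell together. *Slc26a3* (ENSMUSG00000001225, chr12:31390871-31473917, plus strand), also known as DRA, exchanges luminal chloride for bicarbonate, and it ranged from 24.05 to 55.3 CPM in tdTom+ (median 37.4) and from 121 to 225 CPM in tdTom- (median 190). *Slc26a6* (ENSMUSG00000023259, chr9:108853283-108913049, plus strand), or PAT1, ranged from 33.5 to 93.5 CPM in tdTom+ (median 57.5) and from 244 to 500 CPM in tdTom- (median 434). For both genes mouse 7 gave the lowest value in each fraction, and the fractions did not overlap. The log2 fold changes were -2.25 for *Slc26a3* (SE 0.08, adjusted p = 3.81e-11 by edgeR) and -2.79 for *Slc26a6* (SE 0.10, adjusted p = 2.86e-11), the largest decrease among the 10 genes. *Slc26a6* reads per kilobase exceeded those of *Slc26a3* in all 16 libraries, with a median ratio of 1.81 in tdTom+ and 2.66 in tdTom-. This log2 ratio was lower in tdTom+ by 0.54 (SD over mice 0.09) in 8 of 8 mice, with an exact sign-flip p of 0.00781.

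Of the 2 apical sodium-proton exchangers, *Slc9a3* differed more. *Slc9a3* (ENSMUSG00000036123, chr13:74121515-74166064, plus strand) encodes NHE3, the main route of neutral sodium absorption, and ranged from 11.7 to 28.7 CPM in tdTom+ (median 16.8) and from 88.0 to 155 CPM in tdTom- (median 133). *Slc9a2* (ENSMUSG00000026062, chr1:40680574-40769273, plus strand), which encodes NHE2, ranged from 31.1 to 55.3 CPM in tdTom+ (median 44.1) and from 99.4 to 184 CPM in tdTom- (median 137). Neither gene had overlapping fractions. The edgeR log2 fold changes were -2.73 for *Slc9a3* (SE 0.12, adjusted p = 1.63e-10) and -1.62 for *Slc9a2* (SE 0.07, adjusted p = 1.39e-10).

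In CPM, *Slc9a2* was higher than *Slc9a3* on average in both fractions, at 44.3 against 18.4 in tdTom+ and 137 against 121 in tdTom-. Division by the annotated exon lengths (6984 bases for *Slc9a2* and 2490 for *Slc9a3*) turned this order around. The ratio of *Slc9a2* to *Slc9a3* reads per kilobase had a median of 0.844 in tdTom+ and 0.401 in tdTom-. The log2 ratio was higher in tdTom+ by 1.11 (SD over mice 0.33) in 8 of 8 mice, with an exact sign-flip p of 0.00781. *Cftr* exceeded *Slc9a3* per kilobase in every tdTom+ library (ratio 1.17 to 2.42, median 1.75) and lay below it in every tdTom- library (0.323 to 0.567, median 0.408). This difference of 1.98 on the log2 scale (SD over mice 0.44) was in the same direction in 8 of 8 mice and had the same exact p of 0.00781. The crossing of equal levels depends on the annotated exon lengths (7765 bases for *Cftr* and 2490 for *Slc9a3*). In CPM, *Cftr* was higher than *Slc9a3* on average in both fractions, at 96.8 against 18.4 in tdTom+ and 162 against 121 in tdTom-. Each of the 4 ratios had an adjusted p of 0.00781, and a ratio within a library does not depend on how libraries are scaled.

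**Figure D2:**
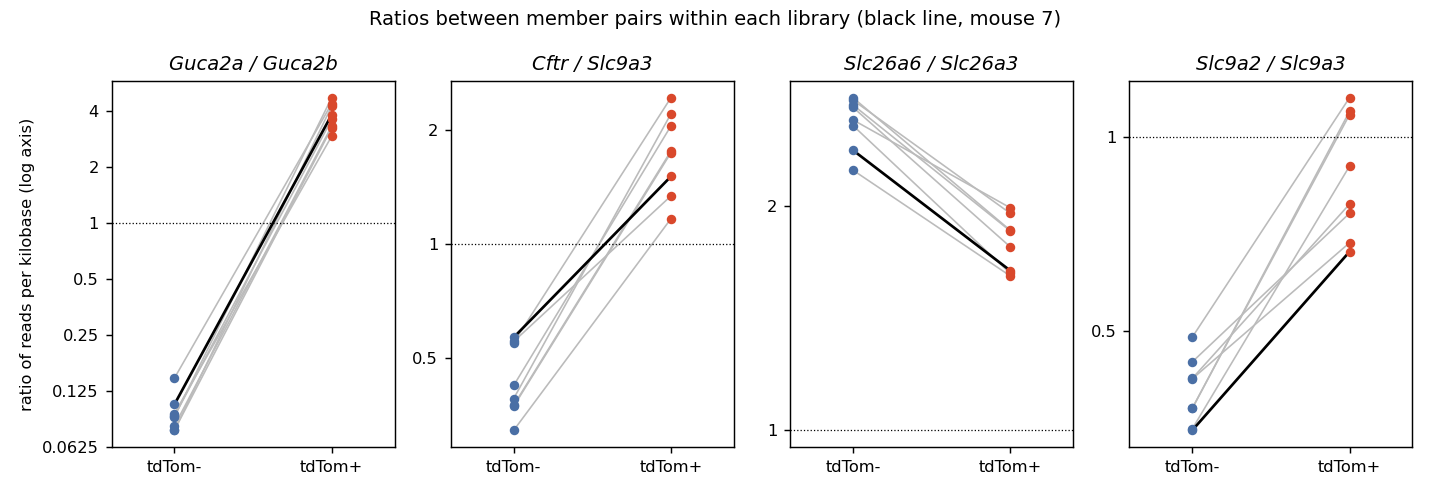
Ratio of reads per kilobase of exon between 4 pairs of genes (log axis, no count added) in the tdTom- (blue) and tdTom+ (red) library of each mouse, with mouse 7 as a black line and a dotted line at equal levels. Medians move from 0.0907 to 3.70 for *Guca2a* to *Guca2b* and from 0.408 to 1.75 for *Cftr* to *Slc9a3*, both across the dotted line. Whether *Cftr* to *Slc9a3* crosses that line depends on the annotated exon lengths.

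The order of the 10 genes per kilobase rests on the annotated exon lengths, and it differed between the fractions. In tdTom+ it began with *Guca2a* (614 ± 77.2 CPM per kilobase, SD, n = 8), *Guca2b* (164 ± 16.4) and *Gucy2c* (61.5 ± 4.07), whose ranges did not overlap with their neighbours in the order. *Kcnn4* (18.2), *Cftr* (12.5), *Slc26a6* (11.2), *Slc9a3* (7.41), *Slc9a2* (6.34), *Slc26a3* (6.22) and *Prkg2* (4.01) followed, each overlapping in range with the next. The tdTom- order began with *Guca2b* (589 ± 140), clear of *Gucy2c* (96.2 ± 13.5). From *Gucy2c* on, through *Slc26a6* (75.8), *Guca2a* (54.5), *Slc9a3* (48.8), *Slc26a3* (29.0), *Cftr* (20.9), *Slc9a2* (19.6), *Prkg2* (19.4) and *Kcnn4* (15.1), neighbours overlapped. *Kcnn4* thus followed directly after the ligand and receptor genes in tdTom+ and came last in tdTom-, although its own level did not pass the test.

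**Figure D3:**
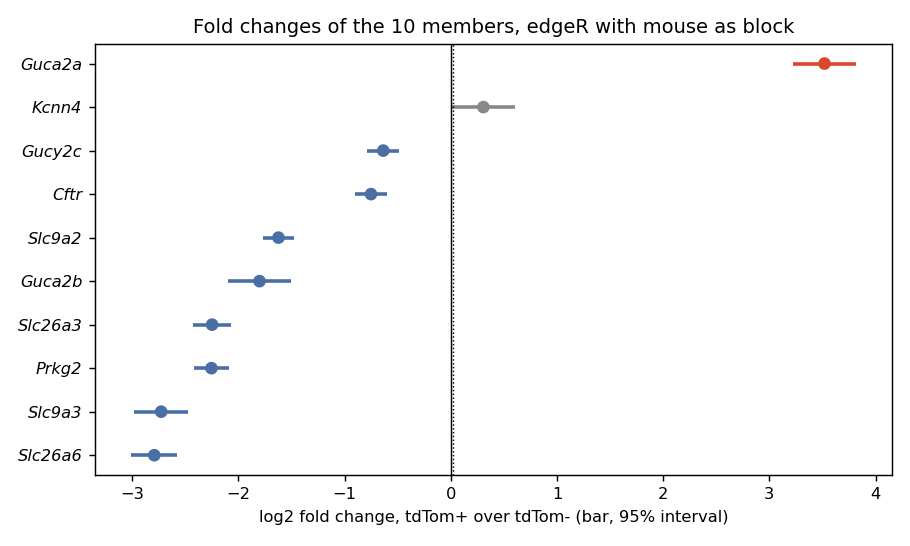
Log2 fold change of tdTom+ over tdTom- for the 10 genes (edgeR with mouse as a block), with bars for the 95% interval, red for higher, blue for lower and gray for an adjusted p of at least 0.01, and a dotted line at the median of all genes tested. *Guca2a* stands alone on the right at 3.52, and *Slc26a6*, *Slc9a3*, *Prkg2* and *Slc26a3* lie between -2.79 and -2.25.

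The 8 lower genes shared their direction with the absorptive markers, and how much of each gene remained in tdTom+ varied. The tdTom+ level of the 8 absorptive markers had medians over mice of 7.74% (*Apoa4*) to 19.6% (*Fabp2*) of the tdTom- level. *Slc26a6* (13.2%), *Slc9a3* (13.9%) and *Slc26a3* (19.6%) lay within that span. *Prkg2* (21.3%), *Guca2b* (25.6%), *Slc9a2* (31.4%), *Cftr* (60.4%) and *Gucy2c* (61.5%) lay above it. The remaining *Cftr* level was 43.9 to 70.0% and that of *Gucy2c* 56.2 to 82.4% over the 8 mice. The part of absorptive RNA in these levels was not tested.

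*Guca2a* likewise remained in tdTom- at a median of 9.06% of its tdTom+ level, from 4.36 to 12.4% over the 8 mice. The 16 goblet and Paneth markers remained at medians of 0.53% (*Mptx2*) to 1.38% (*Agr2*), and the highest value of any of them in any mouse was 1.60%. The share of *Guca2a* that remained in tdTom- therefore lay above that of all 16 goblet and Paneth markers in each mouse. Of the 15 enteroendocrine and tuft markers tested, 14 remained at higher medians than *Guca2a*, from 17.5% (*Dclk1*) to 63.6% (*Sh2d6*), and *Neurog3* at 6.28%. These shares describe the libraries and were not tested against each other.

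Mouse 7 gave the lowest tdTom- value of 7 of the 10 genes and the highest of *Kcnn4*. As a share of the median of the other 7 mice, its tdTom- level was 43.2% for *Guca2b*, 48.8% for *Prkg2*, 52.2% for *Guca2a* and 54.7% for *Slc26a6*, but 114% for *Cftr* and 195% for *Kcnn4*. In its tdTom+ library 5 of the 10 genes were lowest, among them *Slc26a6* at 54.7%, while *Guca2a* (109%) and *Guca2b* (113%) were not low. In the same tdTom- library the summed mitosis markers were at 613 CPM against 303 to 441 in the other mice. The part of this makeup in the gene levels was not tested. None of the 9 calls depended on mouse 7.

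**Figure D4:**
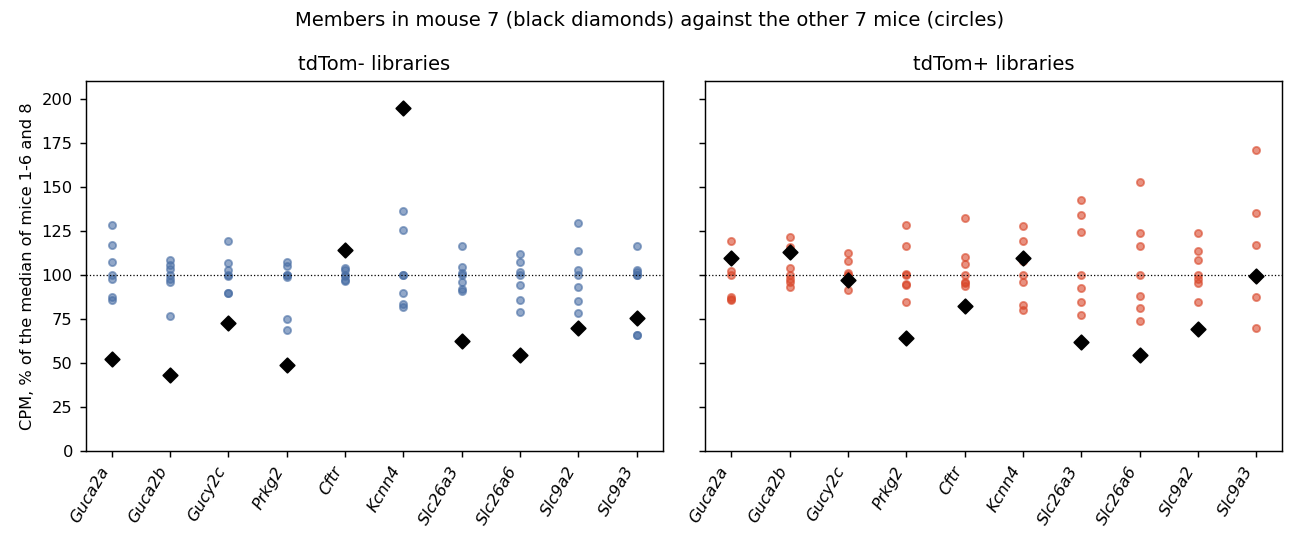
CPM of each gene in mouse 7 (black diamonds) and in the other 7 mice (circles), as a percent of the median of those 7, in the tdTom- (left) and tdTom+ (right) libraries. In tdTom-, mouse 7 lies lowest for 7 genes, within the others for *Cftr* and *Slc9a3* and at 195% for *Kcnn4*.

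Patterns over libraries were compared as deviations of log2 CPM from the mean of each fraction over 16 libraries, as a description, since the 2 libraries of a mouse share their source and mouse 7 is included unless stated. Among the 8940 other genes with at least 10 CPM on average, the most like *Guca2b* were *Fam213a* (Pearson r = 0.948), *Sbk1* (0.931) and *Slc25a51* (0.927), which were 0.726, 0.686 and 0.687 over the 14 libraries without mouse 7. The most like *Guca2a* were *Plscr1* (0.838), *St3gal1* (0.832) and *Mccc1* (0.824), or 0.70, 0.458 and 0.483 without it. For *Cftr* they were *Slc16a13* (0.84), *Brk1* (0.838) and *Aifm1* (0.766), or 0.773, 0.852 and 0.881 without it. The values differed by fraction. For *Cftr* they were 0.918, 0.934 and 0.94 in tdTom+ alone, but 0.475, 0.438 and -0.0607 in tdTom- alone. For *Guca2b* they were 0.78, 0.414 and 0.33 in tdTom+ and 0.964, 0.969 and 0.979 in tdTom-. For *Guca2a* they were 0.574, 0.764 and 0.275 in tdTom+ and 0.912, 0.849 and 0.935 in tdTom-. In tdTom- without mouse 7, *St3gal1* fell to 0.0805. Between the genes described here, r was 0.629 for *Guca2a* with *Guca2b*, 0.704 for *Guca2b* with *Gucy2c* and -0.696 for *Guca2b* with *Kcnn4*. Without mouse 7 these were -0.332, 0.241 and -0.28, so that the positive value for the 2 ligand genes rested on that mouse.

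Other genes of ion and fluid transport were taken from 7 lists of 96 genes in all, of which 76 were tested. Of these, 23 were higher in tdTom+ (30.3%), 36 lower (47.4%) and 17 did not pass, against 25.8% and 30.0% of all genes. In the basolateral list, 1 of 10 genes was higher and 6 were lower, with a median log2 fold change of -0.84. The higher gene was *Slc12a2*, the sodium-potassium-chloride cotransporter NKCC1 that loads cells with chloride and is also among the stem markers, at 500 ± 62.2 CPM in tdTom+ and 310 ± 70.3 in tdTom- (SD, n = 8, log2 fold change 0.71, edgeR adjusted p = 1.08e-05). *Clcn2*, a chloride channel, was lower, with a log2 fold change of -2.59.

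Among the scaffolds and regulators of CFTR and NHE3, 5 of 15 genes were higher and 8 lower (median -0.35). Of the PDZ proteins that tether these transporters, *Slc9a3r2* (NHERF2) was higher by a log2 fold change of 3.89, at 5.16 against 0.342 CPM. *Slc9a3r1* (NHERF1), the most abundant of those named, was lower (-1.42), at 250 against 675 CPM. *Pdzk1* (-3.41) and *Pdzd3* (-2.64) were also lower. *Gopc*, a Golgi protein that binds CFTR, was higher (1.33). In cGMP and cAMP signalling 8 of 17 genes were higher and 7 lower (median -0.03). *Abcc4*, an exporter of cyclic nucleotides, was higher (2.27), at 7.38 against 1.53 CPM. The phosphodiesterase *Pde10a* was also higher (2.08), but at only 1.56 against 0.352 CPM. The more abundant phosphodiesterases *Pde9a* (-1.46, 39.9 against 110 CPM), *Pde3a* (-1.27, 35.2 against 84.8) and *Pde5a* (-0.75, 51.5 against 86.5) were lower. The receptors for adenosine, *Adora2b* (-3.24, 1.21 against 11.6 CPM), and vasoactive intestinal peptide, *Vipr1* (-1.59, 87.2 against 261 CPM), were lower.

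Carbonic anhydrases make bicarbonate, and 2 of the 8 tested were higher and 4 lower (median -0.36). *Car2* (-2.45) and *Car13* (-1.84), both cytosolic enzymes, were lower, and the mitochondrial *Car5b* was higher (1.43) at a level below 1 CPM. *Car8*, a family member without enzyme activity, was higher by 3.63. Of 12 other chloride channels 3 were higher and 6 lower (median -0.30). *Clca1*, at 15369 ± 4573 CPM in tdTom+ and 85.4 ± 15.5 in tdTom-, was the highest in fold (7.45), and it encodes a secreted goblet cell protein rather than a channel and is one of the goblet markers. *Ano1*, a calcium-activated chloride channel, was higher by 0.50, at only 2.32 against 1.66 CPM. Its edgeR adjusted p was 0.00872, which was 0.0197 without the mouse block. *Ano6* was lower (-2.40), at 98.9 against 521 CPM.

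Among the other SLC26 and SLC9 genes 3 of 8 tested were higher and 1 was lower (median -0.07). The bicarbonate exchanger pendrin, *Slc26a4*, was higher by 1.28 but stood at only 1.74 against 0.706 CPM. The intracellular exchanger *Slc9a7* was higher by 2.58 at 1.08 against 0.176 CPM, and *Slc26a11* was lower (-1.11) at 3.16 against 6.84 CPM. In the sodium and water list 1 of 8 genes was higher and 5 were lower (median -2.05), and this list shares *Slc5a1* with the absorptive markers. The aquaporins *Aqp7* (-3.63, 1.35 against 17.2 CPM) and *Aqp3* (-3.38, 2.06 against 21.6 CPM) were lower. *Scnn1a*, the alpha subunit of the epithelial sodium channel, was at 107 ± 21.7 CPM in tdTom+ and 4.68 ± 0.828 in tdTom- (SD, n = 8, log2 fold change 4.50, edgeR adjusted p = 4.95e-12). Its partner subunits *Scnn1b* and *Scnn1g*, named after their values were seen, had 0 counts in all 16 libraries, which allows up to 0.175 CPM in the smallest library.

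**Figure D5:**
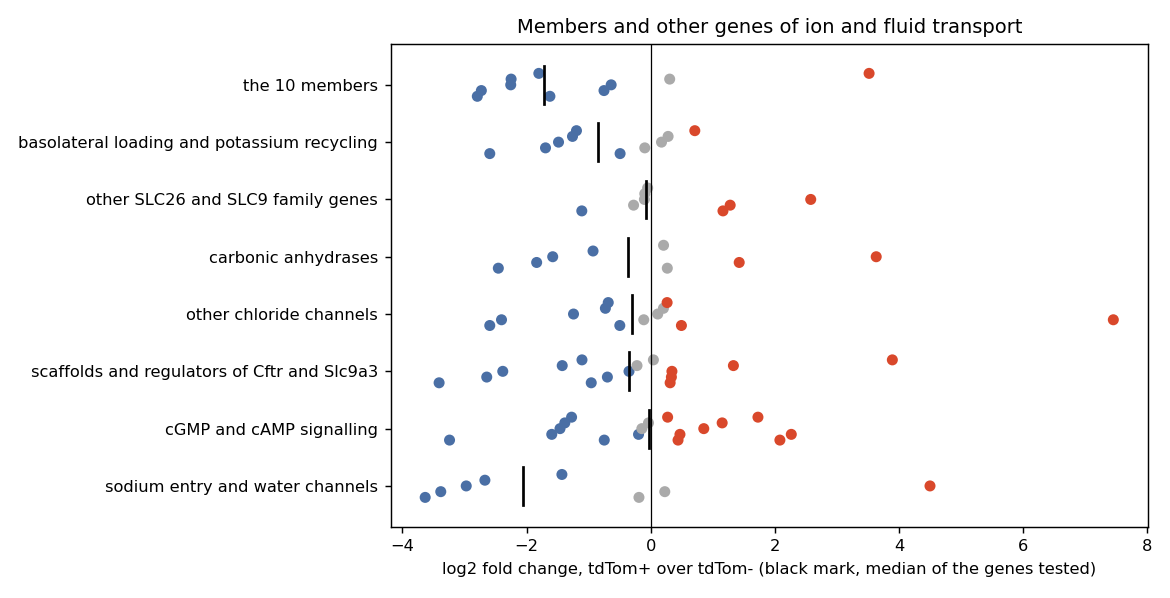
Log2 fold change of tdTom+ over tdTom- for the 10 genes and the tested genes of 7 lists (1 point per gene, red higher, blue lower, gray an adjusted p of at least 0.01, black mark the median). The median of the 10 genes is -1.71, that of the sodium and water list -2.05, and the other 6 lists lie between -0.84 and -0.03.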

How the data were processed

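RNA-seq counts were analysed for 16 libraries, 8 EpCAM+tdTom+ and 8 EpCAM+tdTom-, 1 of each per mouse, grouped by the labels. Per the labels, libraries were TruSeq Stranded mRNA. The authors sequenced 50 bp single-end reads, aligned them with TopHat2 2.1.1 to GRCm38.p3 and deposited raw counts per Ensembl gene. The file headers give featureCounts 1.5.0-p1, counting on the reverse strand, while the submitters' processing notes give Subread 1.5.2. DESeq2 1.14.1 is also in those notes. Column 7 of each file, the raw count, was used, and 0 columns of other samples were found. Of 45513 gene identifiers, 44585 matched a symbol.

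The members and gene lists were chosen with earlier results of these data known. Counts were filtered (filterByExpr, 15323 genes), scaled by TMM and fitted with the edgeR 4.0.16 quasi-likelihood test (R 4.3.3) with mouse as a block, at a Benjamini-Hochberg adjusted p under 0.01. Pairing follows the series design, in which both fractions came from each mouse. Deviations from the fraction means correlated at 0.426 on average between the 2 libraries of a mouse (0.245 to 0.634) and at -0.0569 between mice, and 8 of 8 tdTom- libraries matched their own tdTom+ library best. No 2 libraries of the same fraction agreed within sampling noise (lowest chi-square per degree of freedom 5.26 over 56 pairs). Log2 CPM used a prior count of 2. Ratios used counts per kilobase of exon with 0.5 counts added and were tested by flipping the signs of the 8 within-mouse differences (all 256 patterns, two-sided, exact), adjusted over 4 ratios, at 0.05.

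Named were the 10 members, *Atoh1*, up to 2 called genes per direction with the most extreme fold change in each list, the 3 genes nearest in pattern to *Guca2a*, *Guca2b* and *Cftr*, and markers beside a member's value. The value of 1 gene that this rule names is not reported here. Exons of the members shared 0 bases with other genes on their strand. The fits were tested on simulated data. Alternatives were other scalings, filters and thresholds, thinning, no block, DESeq2 1.42.0, limma-voom 3.58.1 and leaving out each mouse. *Pde2a* was not matched, and 19 list genes fell under the filter (highest count 21). The limit for a count of 0 is 3 counts and covers counting error only.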

Additional observations from a re-analysis of the deposited data

Results flagged for a closer look

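In 28 sets of 8 log2 values (log2 CPM of the 10 genes and 4 log2 ratios in each fraction), 3 had a sample whose gap to the nearest other sample was larger, as a share of the range, than the 95% Dixon limit for 8 values, which chance passes in about 1 of 20 sets. All 3 concerned the low tdTom- library of mouse 7. On the log2 scale the gap was 0.549 of the range for *Guca2a* (17.4 CPM against 28.5 to 42.8 in the other mice), 0.622 for *Guca2b* (242 against 430 to 609) and 0.597 for *Slc26a3* (121 against 175 to 225). On CPM itself the gaps were 0.438, 0.512 and 0.521 of the range, all under the limit. The log2 fold changes without mouse 7 were 3.39, -1.96 and -2.23, each with the same call.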

How the results depend on the processing

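Over 18 alternatives for each of the 10 genes, 179 of 180 fold changes kept the sign and the call, the exception being *Kcnn4* without mouse 7, and no result reversed. The number of the 10 genes called was 9 to 10 with each mouse left out and 7 when a log2 fold change of at least 1 was also required, which drops *Cftr* and *Gucy2c*. That requirement moved the genes called from 8556 to 3498 and the list genes called from 59 to 39. Leaving out mouse 7 gave 60 list genes called, 23 higher and 37 lower. The calls that changed lay in the cGMP and cAMP list and in the sodium and water list. Without the replicate block, 7606 genes, 9 of the 10 genes and 54 list genes were called, and *Ano1* (adjusted p = 0.0197) was among those lost. All 48 values of the 4 ratios kept direction and call. With no replicate block the ratio differences (5.32, 1.98, -0.54 and 1.11) are the same by construction, and the adjusted p of each was 0.000155. Requiring 10 counts in every library shifted the median of all genes by 0.119 (log2) and the share of calls that were higher from 46.2 to 57.0%, and the list medians of -0.07 and -0.03 lie within that shift. Leaving out mouse 3 shifted the median by 0.104 and that share to 55.5%, and the cause was not tested. Fold changes are relative to this scaling. The summed ligand level passed 0.05 in 2 of 8 analyses that left out a mouse.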
